A study of Mus musculus with 26 samples.

Results

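Shisa3, Cnr1 and Ddx4 are 3 of the 41442 genes listed in each of the study's RNA-seq tables, and all 3 passed the filter on low counts in both tables. They were chosen by their uterine counts, which differed widely between the Amhr2+ and the Gli1+ cells of the mouse uterus near birth, so their uterine values are given as a description without a test. The fetal libraries had no part in that choice, and there the genes were tested. Shisa3 lay highest in Gli1+ cells and Cnr1 in Amhr2+ cells of the uterus. Ddx4, a germ cell gene, was read at several CPM (counts scaled to library size) in uterine Gli1+ cells while the genes that define germ cells stood at or near 0.

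All embryos carried a Cre driver and a Tomato reporter at the Rosa locus. Gli1-CreER, a Cre that needs tamoxifen, marked cells that expressed Gli1 when their dams received 1 mg of tamoxifen at E12.5 and E13.5 (days of embryonic development), together with the descendants of those cells. Amhr2-Cre marked cells by the promoter of the anti-Müllerian hormone receptor gene, which needs no tamoxifen, although the labels give the injections for both lines. Gli1+ cells were sorted from mesonephroi, which hold the Wolffian and Müllerian ducts, of XX (female) and XY (male) embryos at E14.5 and E16.5, with 3 libraries in each of the 4 groups. Gli1+ and Amhr2+ cells were sorted from the female uterus at E19.5, with 3 libraries each. The labels do not say whether replicates came from separate litters or from pooled embryos, so p-values measure only the spread between these libraries.

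Library totals were 23382983 to 64602477 counts in the fetal and 28709191 to 37541045 in the uterine table, where 3 counts, taken as the floor of detection, were worth 0.0485 to 0.126 and 0.0777 to 0.102 CPM. All 6 female and all 6 male fetal libraries matched their sex labels. The 14 genes of a tract mesenchyme list summed to 28645 to 30683 CPM in uterine Amhr2+ and 56673 to 63534 CPM in uterine Gli1+ libraries, against 74.1 to 76.7 and 32.9 to 46.2 CPM for 11 epithelial genes. In both sorts the mesenchymal sum far exceeded the epithelial one. Col1a1, the most abundant mesenchyme gene, alone had means of 10937 CPM in Amhr2+ and 21515 CPM in Gli1+ cells. The median log2 fold change of the 14 genes was 0.03. Of these, edgeR called 3 as higher and 5 as lower in Amhr2+ cells (adjusted p under 0.05), where it called 23.9% of all genes. Amhr2 measured 11.1 ± 4.31 CPM (SD, n = 3) in uterine Amhr2+ and 4.1 ± 0.996 CPM in uterine Gli1+ cells, and Gli1 10.5 ± 2.62 and 17.9 ± 2.84 CPM, so each sort held RNA of both markers. The uterine and fetal libraries came from a stranded and a non-stranded kit, and no value is compared between the tables.

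Some Shisa proteins reside in the endoplasmic reticulum, where they bind immature Frizzled and FGF receptors and keep them from the cell surface, which lowers a cell's response to Wnt and FGF. Cnr1 encodes the cannabinoid receptor CB1, a G protein-coupled receptor for the endocannabinoids anandamide and 2-arachidonoylglycerol, known in the brain and, in the female tract, for its part in embryo transport and implantation. Ddx4, also called Vasa or MVH, is a DEAD-box RNA helicase of germ cells that works in the piRNA pathway against transposons and serves as a standard germ cell marker.

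The gene positions below are on mm10, per the file headers. Shisa3 (ENSMUSG00000050010.8) runs on the plus strand of chromosome 5 from 67607882 to 67613992, Cnr1 (ENSMUSG00000044288.6) on the plus strand of chromosome 4 from 33924632 to 33948831, and Ddx4 (ENSMUSG00000021758.14) on the minus strand of chromosome 13 from 112598333 to 112652475. None of the 3 overlaps another gene of the tables. A longer Shisa3 transcript in GENCODE vM21 reaches 67623552 and runs into Atp8a1 on the opposite strand. The accessible chromatin data consist of 1 list of 71040 ATAC-seq peaks for all 8 fetal Gli1+ samples, without heights. Of 17836 genes compared, 79% had a peak within 1 kb of the start given in the table. Shisa3 and Cnr1 each had 1, and Ddx4 had none within 5 kb and none anywhere in the gene. The 250 bases before the RefSeq start (GRCm38.p6, the assembly called mm10) are shown because the 3 promoters differ in this respect. The RefSeq start can differ from the gene start given above. The Ddx4 window runs across the gene start at 112652475, so part of it lies inside the gene as given above. The Cnr1 window ends just past its gene start at 33924632. They are written 5′ to 3′ on the gene's own strand, and capitals mark matches to 3 motifs searched on both strands: the E-box CACGTG, the GC box GGGCGG and the E2F site GGCGGGAA.
Shisa3, chr5:67607633-67607882, plus strand: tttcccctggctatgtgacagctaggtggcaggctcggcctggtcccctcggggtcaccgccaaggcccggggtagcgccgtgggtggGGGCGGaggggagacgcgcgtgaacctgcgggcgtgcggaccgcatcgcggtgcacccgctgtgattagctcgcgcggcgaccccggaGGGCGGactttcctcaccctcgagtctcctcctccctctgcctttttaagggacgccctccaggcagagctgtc
Cnr1, chr4:33924394-33924643, plus strand: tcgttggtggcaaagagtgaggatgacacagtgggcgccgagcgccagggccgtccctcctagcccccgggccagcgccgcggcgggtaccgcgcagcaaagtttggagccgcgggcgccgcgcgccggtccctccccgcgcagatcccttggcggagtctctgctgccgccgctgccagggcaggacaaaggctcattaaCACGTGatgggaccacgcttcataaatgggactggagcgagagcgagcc
Ddx4, chr13:112652311-112652560, minus strand: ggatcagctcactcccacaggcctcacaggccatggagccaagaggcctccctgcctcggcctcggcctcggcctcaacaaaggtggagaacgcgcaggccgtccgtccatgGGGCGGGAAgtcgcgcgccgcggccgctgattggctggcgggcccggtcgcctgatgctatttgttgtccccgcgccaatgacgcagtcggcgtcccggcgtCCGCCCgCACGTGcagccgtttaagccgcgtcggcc

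All 3 windows are rich in CpG, the target of DNA methylation, with 25 CpG in Shisa3, 28 in Cnr1 and 31 in Ddx4 against a median of 6 in the 32851 windows of the table; windows with at least as many made up 10.7%, 7.61% and 5.19%. The Shisa3 peak ran from 67607865 to 67608635 and lay almost wholly downstream of the start, covering the last 18 bases of the sequence shown. The Cnr1 peak, 33924198 to 33925222, covered the whole sequence shown. RefSeq lists 2 other Cnr1 starts: the window from 33924014 to 33924263 had 36 CpG, 66 bases under the same peak and 5 GC boxes, and that from 33926130 to 33926379 had 5 CpG, no peak and no match to a motif searched. The peak nearest to Ddx4, 112660574 to 112661034, lay 8.1 kb upstream, at the start of its neighbour Slc38a9. The E-box occurred once in the Cnr1 window shown and once in the Ddx4 window, and in 6.02% of all windows. The GC box occurred 2 times in the Shisa3 and 2 times in the Ddx4 window, not in the Cnr1 window shown, and in 32.7% of all. The E2F site occurred once, in Ddx4, where it overlaps a GC box, and in 1.86% of all. Each match in the Ddx4 window lies in the part inside the gene as given above. The binding site of GLI factors, TGGGTGGTC, and the TATA box TATAAA were found in none of the sequences shown. These matches describe letters only.

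In the uterus, Shisa3 was read 4, 4 and 8 times in the 3 Amhr2+ libraries, or 0.104, 0.108 and 0.271 CPM. In the 3 Gli1+ libraries it was read 413, 635 and 462 times, or 12.3, 19.6 and 13.9 CPM. The Amhr2+ libraries thus lay just above the floor, and the means differed 95.1-fold (log2 fold change -6.61). With so few reads the lower level is imprecise: the exact Poisson 95% interval of a count of 4 runs from 1.09 to 10.2 reads, counting error only.

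Cnr1 ran the other way, with 18.4, 10.1 and 35.3 CPM in Amhr2+ and 4.97, 3.87 and 4.7 CPM in Gli1+ libraries. The groups did not overlap, but the Amhr2+ libraries differed 3.5-fold among themselves and the Gli1+ libraries only 1.29-fold. The mean was 4.71-fold higher in Amhr2+ cells, a log2 fold change of 2.23.

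Ddx4 measured 0.622, 0.862 and 0.339 CPM in Amhr2+ and 6.01, 6.47 and 5.12 CPM in Gli1+ libraries, from 10 to 32 and from 170 to 209 reads. Its mean was 9.66-fold higher in Gli1+ cells (log2 fold change -3.24). Of all 16195 genes tested, 44.4% had groups that did not overlap and 23.9% were called with edgeR (adjusted p under 0.05); the choice of the 3 genes used this contrast, and nothing is read from their place among those.

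**Figure D1:**
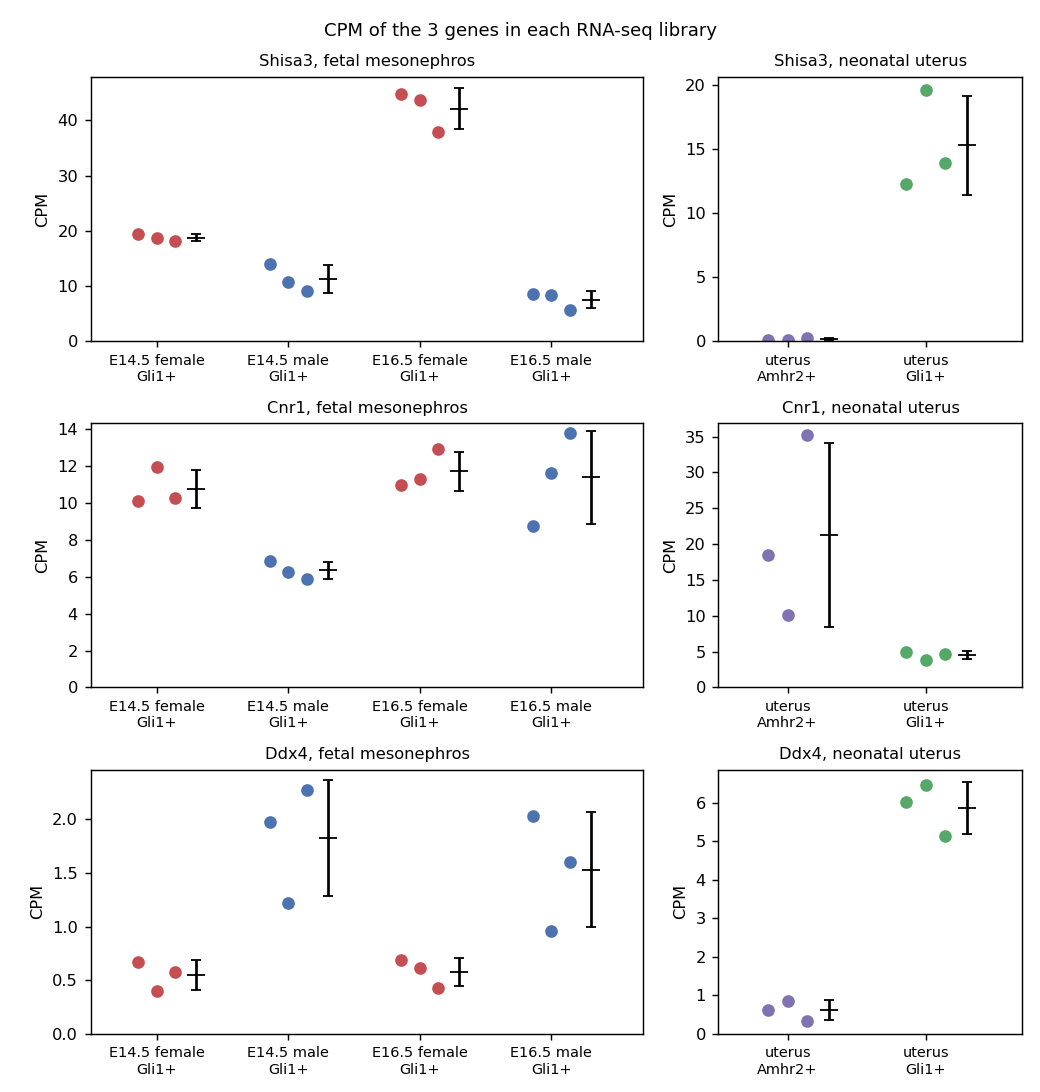
CPM on the TMM-scaled library size (y axes, linear from 0) of Shisa3, Cnr1 and Ddx4 by group (x axes); points are libraries, in replicate order, and the bar beside them is the mean ± SD of 3. Within the fetal table Shisa3 is highest in E16.5 females, at 37.9 to 44.8 CPM, and Ddx4 is higher in males; within the uterine table Shisa3 is at most 0.271 CPM in Amhr2+ cells and at least 12.3 CPM in Gli1+ cells.

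The level of each gene per kb of exon sets the genes on one scale. In uterine Gli1+ cells the mean was 4.07 CPM per kb for Shisa3, 1.95 for Ddx4 and 0.716 for Cnr1. In uterine Amhr2+ cells the order was Cnr1 at 3.38, Ddx4 at 0.202 and Shisa3 at 0.0428 CPM per kb. In fetal cells Shisa3 was highest in each group, from 2.01 to 11.2 CPM per kb, and Ddx4 lowest, from 0.182 to 0.605.

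At E14.5 all 3 genes differed between female and male Gli1+ cells, where 6.28% of 17858 genes were called by edgeR. Shisa3 measured 19.4, 18.6 and 18.2 CPM in females and 14, 10.8 and 9.07 CPM in males. Every female library lay above every male one, and the log2 fold change was 0.75 (SE 0.158, 95% interval 0.41 to 1.09, edgeR adjusted p 0.0105). This call was lost without E14.5 female replicate 1 (adjusted p 0.0502) and without E14.5 male replicate 2 (0.0543) or 3 (0.0585). Cnr1 measured 10.1, 11.9 and 10.3 CPM in females and 6.85, 6.26 and 5.9 CPM in males. The groups were again apart, with a log2 fold change of 0.77 (SE 0.149, edgeR adjusted p 0.00507). Ddx4 measured 0.668, 0.398 and 0.579 CPM in females and 1.98, 1.22 and 2.27 CPM in males. It was lower in females by -1.71 on the log2 scale (SE 0.339, edgeR adjusted p 0.00587), 3 of 3 female libraries lying below all males. Groups that did not overlap were seen in 27.2% of the genes tested.

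At E16.5, when 27.3% of genes were called, Shisa3 had 44.8, 43.6 and 37.9 CPM in females and 8.52, 8.41 and 5.72 CPM in males. The female mean was 5.58-fold the male mean, with a log2 fold change of 2.49 (SE 0.16, edgeR adjusted p 4.4e-08). Ddx4 stood at 0.685, 0.615 and 0.429 CPM in females and 2.03, 0.961 and 1.6 CPM in males; its log2 fold change was -1.41 (SE 0.318, edgeR adjusted p 0.00356). The male libraries spread 2.12-fold but all lay above the females. Shisa3 and Ddx4 thus did not overlap between the sexes, as 38.3% of all genes did not. Cnr1 no longer parted the sexes: females had 10.9, 11.3 and 12.9 CPM and males 8.74, 11.6 and 13.8 CPM, which overlap. Its log2 fold change was 0.04, with a 95% interval from -0.26 to 0.33, and its edgeR adjusted p was 0.886.

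**Figure D2:**
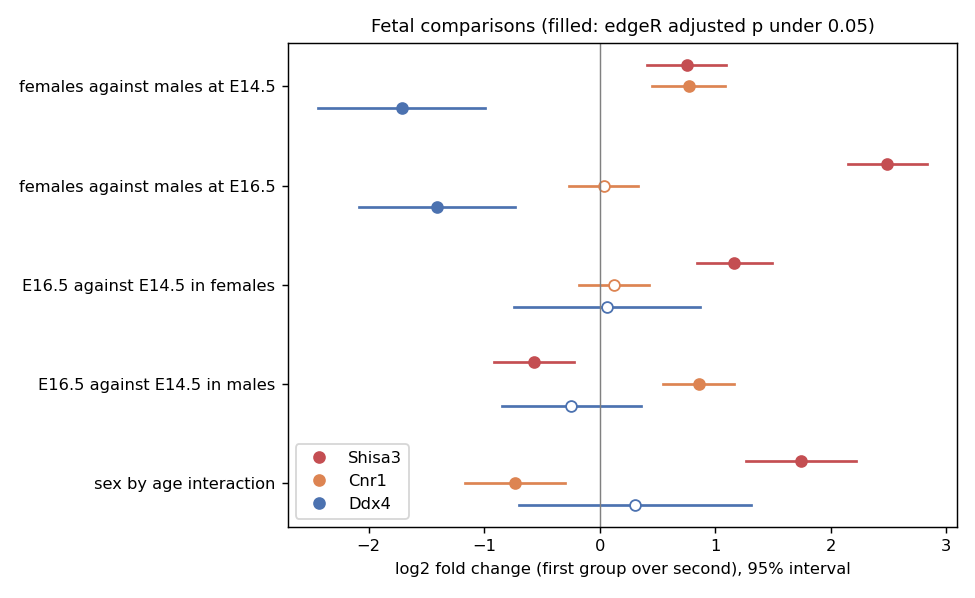
Log2 fold changes (x axis) of the 3 genes in the 5 comparisons of fetal Gli1+ cells (y axis), first group over second, with 95% intervals from the edgeR fit; filled points passed an adjusted p under 0.05. Shisa3 lies above 0 between the sexes at both ages, 0.75 and 2.49, Ddx4 lies below 0 at both, -1.71 and -1.41, and Cnr1 passed the test between the sexes at E14.5 (0.77) but not at E16.5 (0.04).

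With age, Shisa3 moved in opposite directions in the sexes. It rose in females from 18.8 ± 0.59 to 42.1 ± 3.7 CPM (SD, n = 3), a log2 fold change of 1.17 (SE 0.152, edgeR adjusted p 3.78e-05). In males it fell from 11.3 ± 2.5 to 7.55 ± 1.59 CPM, a log2 fold change of -0.57 (edgeR adjusted p 0.0191). The fall in males was lost without E14.5 male replicate 1 (adjusted p 0.0758), without E16.5 male replicate 3 (0.0764) and in a fit of only the 6 male libraries (0.0729). The sex difference itself grew between the ages, with a sex by age interaction of 1.74 on the log2 scale (SE 0.222, edgeR adjusted p 0.000149).

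Cnr1 rose with age in males, from 6.34 ± 0.484 to 11.4 ± 2.53 CPM (log2 fold change 0.86, SE 0.146, edgeR adjusted p 0.000438), with no overlap of the libraries. In females it measured 10.8 ± 1.02 and 11.7 ± 1.05 CPM, and the log2 fold change of 0.12 did not pass the test (95% interval -0.18 to 0.43). The interaction was -0.73 (SE 0.204, edgeR adjusted p 0.0309). It passed the threshold with all 12 libraries and lost it when any of 8 single libraries was left out, with adjusted p of 0.0531 to 0.0962: E14.5 female replicates 2 and 3, E14.5 male replicates 2 and 3, E16.5 female replicates 1 and 2, and E16.5 male replicates 2 and 3.

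Ddx4 did not pass the test with age in either sex. It measured 0.548 ± 0.138 and 0.577 ± 0.132 CPM in females at E14.5 and E16.5, with a log2 fold change of 0.06 (95% interval -0.74 to 0.87). In males it measured 1.82 ± 0.543 and 1.53 ± 0.539 CPM, with -0.24 (-0.85 to 0.36). The interaction of 0.31 had an interval from -0.7 to 1.31. At 10 to 126 reads per library, age effects within these intervals were not detectable. Across all genes 39.6% were called with age in females, 23.3% in males and 10% for the interaction. Groups of both ages did not overlap in 56.6% of genes in females and 34.8% in males. The age and sex comparisons share libraries.

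In order of level in the fetal table, Shisa3 ran from E16.5 females through E14.5 females and E14.5 males to E16.5 males, and no neighbours in that order overlapped. For Cnr1 the libraries of E16.5 females, E16.5 males and E14.5 females overlapped, and E14.5 males lay below them all. For Ddx4 the male groups overlapped each other, the female groups overlapped each other, and the male libraries lay above the female ones.

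Ddx4 was set beside 14 other germ cell markers. In uterine Gli1+ cells, where Ddx4 had 170 to 209 reads, 5 of the 14 had no read in any library: Pou5f1 and Dppa3, of early germ cells, Stra8, which starts meiosis, Figla, an oocyte factor, and Hormad1, of the meiotic chromosome axis. A further 7 had means under 1 CPM. Dazl, an RNA-binding protein gene also used to mark germ cells, had 4, 2 and 5 reads there and 7, 2 and 4 reads in Amhr2+ cells, at or near the floor of 3. Only Kit, which other cells also express, and Tex14 had means above 1 CPM, 29 and 1.16 CPM. The list without Ddx4 summed to 22.4 to 36.1 CPM in Amhr2+ and 27.2 to 35 CPM in Gli1+ libraries, which overlap and are mostly Kit (22.2 and 29 CPM). Of its 4 members tested between the uterine groups 1 was called, where 23.9% of all genes were. This was Rec8, a meiotic cohesin, at 4.91 CPM in Amhr2+ and 0.557 CPM in Gli1+ cells. Rec8 went the other way from Ddx4 (log2 fold change 3.14, edgeR adjusted p 0.000107).

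In fetal cells the list summed to 8.56 to 10 CPM in E14.5 females and 9.54 to 11.2 in E14.5 males, and to 9.44 to 10.5 CPM in E16.5 females and 10.4 to 11.3 in E16.5 males. Kit, which does not mark germ cells alone, made up most of each group's mean sum, with group means of 5.06 to 6.98 CPM. None of the list's 7 tested members was called between the sexes at E14.5, where 6.28% of all genes were. At E16.5, where 27.3% were, only Dazl was called, with a female mean of 0.0988 CPM and a male mean of 0.347 CPM. Dazl had 3 to 20 reads per library (log2 fold change -1.73, edgeR adjusted p 0.0142) and lost the call in 3 of 11 alternative settings. Sycp1, not called between the sexes at either age, had 0, 0 and 1 reads in E14.5 females and 9, 51 and 16 in E14.5 males. At E16.5 Sycp1 had 37, 1 and 23 reads in females and 49, 1 and 49 in males. With age 0 of the 7 were called in females and 0 in males, where 39.6% and 23.3% of all genes were.

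**Figure D3:**
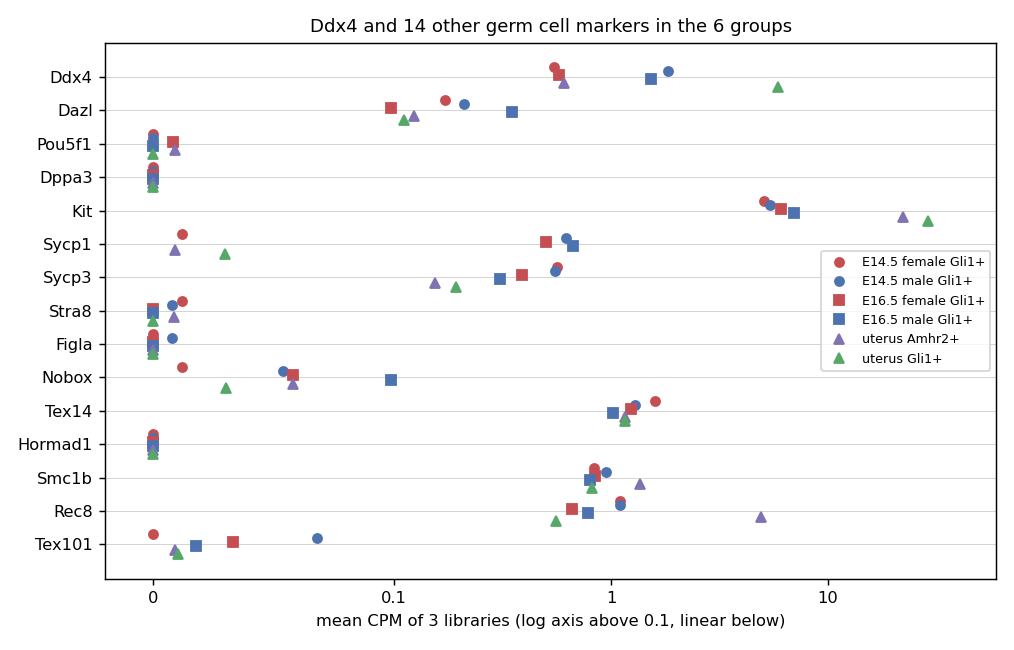
Mean CPM of 3 libraries (x axis, logarithmic above 0.1 and linear below) of Ddx4 and the 14 other germ cell markers (y axis) in the 6 RNA groups. Ddx4 reaches 5.87 CPM in uterine Gli1+ cells, while Pou5f1, Dppa3, Stra8, Figla and Hormad1 lie at 0 there.

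The piRNA and germ granule list, with Ddx4's partners in germ cells, held 22 further genes, and 11 were tested in the uterus. Of these, 3 were called as higher and 1 as lower in Amhr2+ cells, where 23.9% of all genes were called. Tdrd1, Tdrkh and Tdrd7, Tudor proteins of germ granules, were higher in Amhr2+ cells, by 1.25, 0.81 and 0.58 on the log2 scale. Piwil2, a piRNA-binding Argonaute protein, was higher in Gli1+ cells as Ddx4 was, at 1.16 against 0.653 CPM (log2 fold change -0.83, edgeR adjusted p 0.0389), a call lost in 8 of 11 alternative settings; those of Tdrd1 and Tdrkh were lost in 3 each. Mael, Nanos2, Asz1, Mov10l1, Piwil1 and Gtsf1 had means of at most 0.0352 CPM in both uterine groups. The list's median log2 fold change was 0.46, against -0.00 for all genes tested. Between the sexes 6.28% of all genes were called at E14.5 and 27.3% at E16.5. Of 14 tested members 0 were called at E14.5 and 3 at E16.5. At E16.5 Tdrd9 was higher in females (0.96) and Dazl and Ddx25 were lower (-1.73 and -0.36). The call of Tdrd9 was lost in 4 of 12 alternative settings. Ddx25, a helicase related to Ddx4 and the most abundant member at E14.5, with means of 22.8 CPM in females and 23.7 CPM in males, fell with age by 0.91 in females and 0.60 in males on the log2 scale. A list of 13 genes known to be silenced by methylation outside the germline includes Dazl, Sycp3, Mael and Hormad1 of the lists above. Of these, 12 had means under 1 CPM in every group. The other, Zcwpw1, had means of 31.2 to 37.5 CPM in the fetal and 38.3 to 44.9 CPM in the uterine groups. Zcwpw1 was the 1 gene tested in the uterus and was not called. In males it fell with age (-0.27, edgeR adjusted p 0.0105), the 1 called of 5 tested, where 23.3% of all genes were.

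For Shisa3, the other Shisa genes and the Wnt and FGF receptors were followed. The table holds 9 of 10 further family members, of which 8 were tested in the uterus and 7 in the fetal table. In the uterus, Shisa9, Shisa4 and Shisa5 were lower in Amhr2+ cells, as Shisa3 was, the log2 fold changes being -1.90, -0.41 and -0.30. None was called as higher. These 3 of 8 stand beside 23.9% of all uterine genes called. The calls of Shisa4 and Shisa5 were lost in 4 and 6 of 11 alternative settings. Shisa9, an AMPA receptor partner in neurons, measured 1.99 CPM in Amhr2+ and 7.43 CPM in Gli1+ cells (edgeR adjusted p 0.000625). The median of the 8 was 0.07 against -0.00 for all genes. Between fetal sexes the called members lay on the other side from Shisa3. Shisa9 was lower in females at E14.5 and E16.5 (log2 fold changes -0.64 and -1.20), and so was Shisa4 (-0.61 and -0.60). Of all genes, 6.28% were called at E14.5 and 27.3% at E16.5. No member was called as higher in females. Shisa2 at E14.5 was not called, but measured 2.90 to 3.58 CPM in females and 1.53 to 2.51 CPM in males. Shisa2, the member best known for holding Frizzled and FGF receptors, fell with age in females from 3.29 to 1.34 CPM (log2 fold change -1.29, edgeR adjusted p 0.000251), while Shisa3 rose. Shisa5 was the most abundant, at 34.4 to 44.2 CPM in the fetal groups.

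All 16 Frizzled, Lrp5/6 and FGF receptor genes were tested in both tables. In the uterus 4 were called as lower in Amhr2+ cells and 0 as higher: Fzd4 (log2 fold change -1.12), Fzd7 (-0.66), Fgfr1 (-0.34) and Fzd2 (-0.28). These 4 of 16 stand beside 23.9% of all uterine genes called, a share close to theirs. The list's median was -0.01 against -0.00 for all genes. At E16.5 4 were higher in females and 3 lower; Fzd10 led the former at 0.76 and Fgfr2, with 59 overlapping entries in the table, the latter at -0.70. At E14.5 the counts were 2 and 2, led by Fzd10 at 0.89 and Fzd4 at -0.36, the latter lost in 6 of 12 alternative settings. With age in females 1 receptor rose and 7 fell, and in males 2 rose and 5 fell, where 27.3% of all genes were called at E16.5, 6.28% at E14.5, and 39.6% and 23.3% with age in females and males. Fzd7 and Fgfr1 had an interaction, of -0.50 and -0.34, where that of Shisa3 was 1.74. The summed level of the 16 was 1287 to 1391 CPM in Amhr2+ and 1395 to 1472 CPM in Gli1+ uterine cells, a difference in sum far smaller than that of Shisa3.

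The endocannabinoid list for Cnr1 held 12 further genes. The other receptors were low: Cnr2, of immune cells, and Trpv1 had means of at most 0.0642 CPM in each of the 6 groups, and Gpr55 at most 1.26 CPM. In the uterus Napepld, which makes anandamide, was higher in Amhr2+ cells as Cnr1 was, at 7.69 against 4.16 CPM (log2 fold change 0.89, edgeR adjusted p 0.00329). Dagla, which makes 2-arachidonoylglycerol, and Cnrip1, which binds the tail of CB1, were lower, with -0.59 and -0.32, the call of Cnrip1 being lost in 5 of 11 alternative settings. The breakdown genes Faah, Mgll, Abhd6 and Abhd12 did not pass the test there; Mgll measured 3.22 and 3.42 CPM. Of the 9 tested members 1 was called as higher and 2 as lower in Amhr2+ cells, where 23.9% of all genes were called. The median of the 9 was -0.08, against -0.00 for all genes. At E14.5, where Cnr1 was higher in females, 0 of 10 tested members were called, against 6.28% of all genes. At E16.5, where 27.3% of all genes were called, Daglb and Cnrip1 were higher in females, by 0.31 and 0.27. Napepld was lower, by -0.39. The calls of Daglb and Napepld were lost in 8 and 4 of 12 alternative settings. With age Naaa, a hydrolase of anandamide-like amides, rose in females and males (0.67 and 0.33, the latter lost in 6 of 12 alternative settings), and so did Dagla (0.62 and 0.39); Gpr55 fell in males (-1.23). Cnrip1 and Abhd12 also rose in females, by 0.25 and 0.23, the call of Abhd12 being lost in 2 of 12 alternative settings. With age 4 of the 10 were called as higher and 0 as lower in females, where 39.6% of all genes were called. In males 2 were called as higher and 1 as lower, where 23.3% were. No member had an interaction at an edgeR adjusted p under 0.05, where 10% of all genes had.

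The nearest genes on each side with a mean of at least 1 CPM were read in the same libraries. Il31ra, a cytokine receptor gene on chromosome 13 at 112522795 to 112580662, ends 17671 bp from Ddx4 and shared its directions between sexes and between uterine sorts. Il31ra measured 3.19, 4.12 and 2.27 CPM in uterine Amhr2+ and 7.71, 14.48 and 12.4 CPM in Gli1+ libraries (log2 fold change -1.84, edgeR adjusted p 0.00309). It was lower in females at E14.5 (-1.82, adjusted p 0.00372) and at E16.5 (-1.60, adjusted p 4.24e-05). Unlike Ddx4 it rose with age, by 2.39 in females and 2.17 in males. On the other side, Slc38a9, an amino acid transporter gene 8291 bp away, passed the test in none of the 6 comparisons, with group means of 24.7 to 33.5 CPM.

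Beside Shisa3, Atp8a1, a lipid flippase gene that lies 4148 bp downstream on the other strand, was higher in E16.5 females (0.74, edgeR adjusted p 8.96e-06) and rose with age in females (0.63), as Shisa3 did. In the uterus it went against Shisa3, at 113 CPM in Amhr2+ and 75.5 CPM in Gli1+ cells (log2 fold change 0.59, edgeR adjusted p 0.00898). The longer Shisa3 transcript runs into Atp8a1, and in the fetal libraries, made without strand, reads of both genes there cannot be told apart. Bend4, 179572 bp away on the other side, was lower in E16.5 females (-1.68) and was not called in the uterus (-0.14). An unnamed transcript that starts 56 bp before Shisa3 on the opposite strand, RP23-213N8.1, was chosen after its values were seen. It had 15, 17 and 15 reads in E16.5 females and 1 to 5 reads in each of the other 9 fetal libraries. Because of that choice its log2 fold change between sexes at E16.5, 2.55, is a description without a test. In the uterus it had 0 reads in all Amhr2+ and 2, 10 and 4 in the Gli1+ libraries. In libraries without strand such reads cannot be parted from Shisa3 reads that lie outside its annotated start.

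Cnr1 lies in a wide gap between genes. Its neighbours are Rngtt, an mRNA capping enzyme gene 422018 bp away, and Spaca1, a sperm acrosome gene 76043 bp away. Both passed the test in none of the fetal comparisons in which Cnr1 did. Their log2 fold changes were 0.00 and -0.15 between the sexes at E14.5, -0.11 and -0.11 with age in males, and -0.35 and 0.11 for the interaction. Rngtt passed where Cnr1 did not: it was lower in E16.5 females than males (-0.35, edgeR adjusted p 0.00539) and fell with age in females (-0.46, edgeR adjusted p 0.000566). In the uterus neither was called, with log2 fold changes of 0.21 and -0.70.

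**Figure D4:**
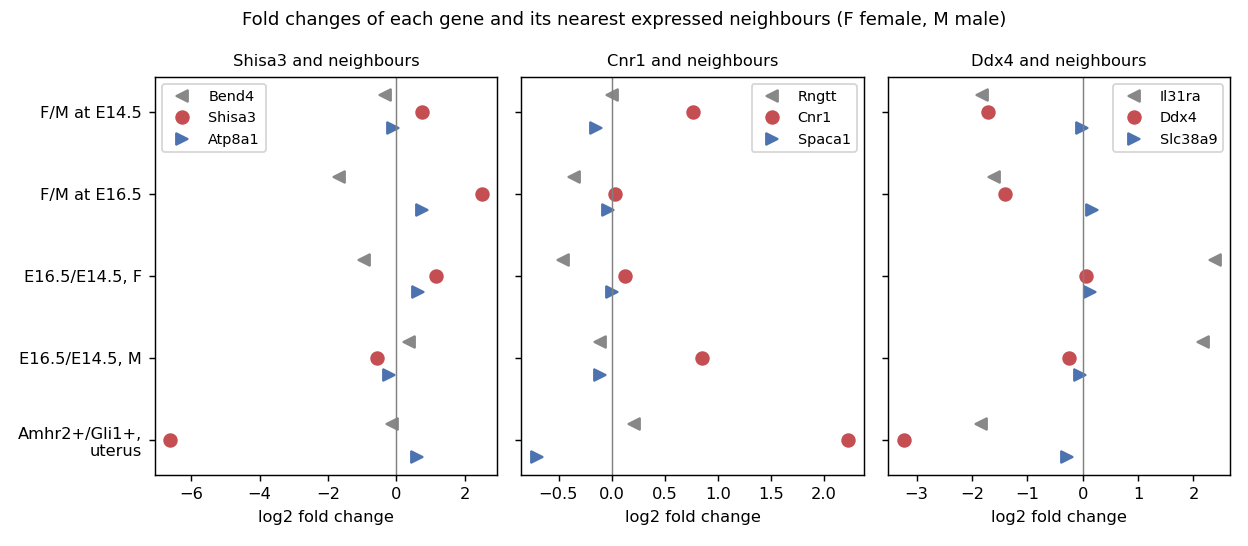
Log2 fold changes (x axes, a separate scale for each gene) of Shisa3, Cnr1, Ddx4 and their nearest neighbours with at least 1 CPM, in 4 fetal comparisons and between the uterine sorts (y axis; F female, M male). Il31ra lies on the same side of 0 as Ddx4 between the sexes and between the sorts, and Slc38a9 stays between -0.29 and 0.16.

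The genes most like each member over the 12 fetal libraries were found by Pearson's r of log2 CPM among 14082 genes. For Shisa3 they were Angpt1, an angiopoietin, Gpm6b, Negr1, Cul9 and Cntn3, with r from 0.99 to 0.98. For Cnr1 they were Hnrnpa1, Tnfrsf14, Fam185a, RP23-110C17.2 and Sdk2, with r from 0.91 to 0.87. For Ddx4 they were Chodl, Tnfrsf11b, the osteoprotegerin gene, Nfasc, the Y-linked Uty and Cldn1, a tight junction gene, with r from 0.90 to 0.89. These libraries share their sex and age groups, so any gene with the same group order scores high. Over the 6 uterine libraries, which fall into 2 groups, the genes with the highest r included Tfpi2, Gli2 and Zfpm2 with Shisa3, Tmem179, Hmga1 and Usp9x with Cnr1, and Lrrn2 and Csmd3 with Ddx4, all at least 0.995. The members were chosen to part these 2 groups, so any gene with a large difference between the sorts scores high, and nothing is read from these r.

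Markers of other cell types also differed between the uterine sorts. Of all genes tested, 23.9% were called between the sorts, 6.28% between the sexes at E14.5 and 27.3% between the sexes at E16.5. With Cnr1, 4 of 9 tested epithelial genes and 2 of 8 mesothelial genes were higher in Amhr2+ cells, the latter count close to the uterine share. The mesothelial list summed to 310 to 367 CPM in Amhr2+ and 189 to 232 CPM in Gli1+ libraries. The library with the highest Cnr1, Amhr2+ replicate 3, had the highest mesothelial sum (366.6 CPM), the highest neural sum (25.4 CPM against 16.6 and 17.4) and the highest immune sum of its group (83.8 CPM against 43.8 and 50.9), and an epithelial sum of 76.7 CPM against 74.1 and 75.5. With Shisa3 and Ddx4, 2 of 7 smooth muscle genes and 3 of 3 tested erythroid genes were higher in Gli1+ cells, the former count close to the uterine share. The smooth muscle sum was 1181 to 1830 CPM in Amhr2+ and 2168 to 2400 CPM in Gli1+ libraries, and the erythroid sum 1.67 to 2.46 and 7.65 to 8.51 CPM. Of 5 tested endothelial genes 2 were higher in Gli1+ cells, of 8 tested ovarian somatic genes 1 was higher in Amhr2+ and 2 in Gli1+ cells, and 0 of 6 immune and 0 of 4 neural genes were called. Krt19 stands in both the epithelial and the mesothelial list, and Wt1, the top mesothelial gene, also in the mesenchyme list. In fetal cells the smooth muscle sum was higher in males, as Ddx4 was, at 312 to 335 CPM in E14.5 females, 634 to 928 in E14.5 males, 486 to 587 in E16.5 females and 1770 to 2968 in E16.5 males, with 4 of 7 genes called at E14.5 and 6 at E16.5. With Shisa3, 8 of 14 mesenchyme genes and 4 of 6 immune genes were higher in E16.5 females, while 3 mesenchyme genes, 6 of 9 ovarian somatic and 4 of 8 mesothelial genes were lower. Of the mesothelial genes 1 was higher, Wt1, by 0.75 on the log2 scale. The mesothelial sum was 191 to 241 CPM in E16.5 females and 158 to 193 CPM in E16.5 males. The epithelial sum was 31.8 to 36.1 CPM in E14.5 females and 45.5 to 54.3 CPM in E14.5 males, with 1 of 11 genes lower in females, and 24.3 to 33.3 and 33.2 to 40.7 CPM at E16.5. The endothelial sum was 64.4 to 77.6 CPM in E16.5 females and 81.8 to 91.5 CPM in E16.5 males, with 2 of 5 genes lower and 1 higher in females. The immune sum was 28.5 to 72.8 CPM in E16.5 females and 12.6 to 46.5 CPM in E16.5 males. E14.5 female replicate 3 had an erythroid sum of 899 CPM against 25.3 and 6.96 CPM in its group; its Shisa3, Cnr1 and Ddx4 lay within or next to the range of the other replicates. The part of these lists in the differences of the 3 genes was not tested. In bulk libraries, fewer cells that express a gene and less RNA per cell cannot be told apart.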

How the data were processed

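The authors deposited raw counts per gene for 12 fetal and 6 uterine RNA-seq libraries, with coordinates on mm10 per the file headers. Per the labels' protocols, the fetal kit was non-stranded and the uterine kit stranded. The submitters' processing notes name STAR 2.5, featureCounts and Subread 1.5.0-p1 for a step not given, and MACS2 2.1.1; the strand setting in counting is not given in the sources used here, so genes that overlap others (among those named, Gpr55, Daglb, Mgll, Abhd12, Cnrip1, Fgfr1, Fgfr2, Piwil2, Nanos2, Mov10l1, Tdrd9, Tdrkh, Pou5f1, Sycp3, Tex14, Zcwpw1, Bend4, Atp8a1, Rngtt, Slc38a9, Angpt1, Negr1, Cul9, Cntn3, RP23-110C17.2, Nfasc, Gli1, Gli2, Zfpm2, Hmga1, Lrrn2 and Csmd3) are uncertain. The deposited peak list gives positions only.

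Each table was fitted by itself with edgeR 4.0.16 in R 4.3.3: filterByExpr by group, TMM, robust quasi-likelihood F tests, and Benjamini-Hochberg adjustment over all genes tested (17858 fetal, 16195 uterine). The fetal model held 4 group means and no block. SE is the log2 fold change over the root of F. The tables hold 64 repeated symbols, given a suffix, and 0 rows without a gene. The fits were tested on simulated data. The members and gene lists were chosen with earlier results of these data known; named genes are the members, their neighbours, the most correlated genes, and list genes called with the largest changes. One gene that this rule names is not reported here. Same-numbered libraries were checked as pairs by the correlation of their deviations from group means. Female and male libraries of E16.5 gave 0.28, 0.11 and 0.4, each over the limit of 0.1. Female replicate 2 with male replicate 1 gave 0.108, so this limit cannot settle whether the numbers pair the libraries. At E14.5 same-numbered libraries of the sexes gave 0.05 to 0.07, and all those of unlike number were negative. The p-values given are from the fit without a block, and the replicate block changed no call of the 3 genes. Each other comparison had at least 1 pair under 0.1. The alternatives were DESeq2 1.42.0, other scalings, no low-count filter, single libraries left out, the replicate block and the fit of only the libraries compared.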

Additional observations from a re-analysis of the deposited data

Results flagged for a closer look

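The sex difference changed between E14.5 and E16.5 by a direct test, the edgeR interaction, in 2 of the 3 genes, where 10% of all 17858 genes tested passed: Shisa3 (1.74 on the log2 scale, females over males, later over earlier; adjusted p 0.000149) and Cnr1 (-0.73, adjusted p 0.0309, lost without any of 8 single libraries). Among neighbours and the Shisa, receptor, endocannabinoid and germ granule lists, the same test passed for the Shisa3 neighbours Bend4 (-1.33) and Atp8a1 (0.84). It also passed for the family members Shisa2 (-1.07) and Shisa9 (-0.57), lost in 6 and 7 of 17 alternative settings. The receptors Fzd7 (-0.50) and Fgfr1 (-0.34) passed too. Genes outside these groups also passed, among them Gli1, Wt1 and Csmd3, lost in 0 of 17 settings. Hmga1 and Amhr2 passed as well, lost in 7 and 11 of 17. The genes most correlated with Shisa3 over the same libraries were picked for that likeness, which fixes the direction of their interaction; their values are given as a description only: Angpt1 (0.89), Gpm6b (0.67), Negr1 (1.5), Cul9 (0.42, lost in 5 of 17) and Cntn3 (1.6). The check for a single outlying value needs at least 4 libraries and was not made in these groups of 3.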

How the results depend on the processing

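The uterine directions of Shisa3, Cnr1 and Ddx4 follow from how the genes were chosen and say nothing about stability. Leaving out single libraries gave -7.13 to -6.36 for Shisa3, 1.66 to 2.58 for Cnr1 and -3.56 to -2.98 for Ddx4 on the log2 scale; Shisa3 moved by more than 1 SD only without Amhr2+ replicate 3. In the fetal table, Shisa3 at E16.5, Cnr1 and Ddx4 at E14.5, Ddx4 at E16.5, Shisa3 with age in females, Cnr1 with age in males and the Shisa3 interaction kept direction and call in every alternative run. Leaving out single libraries gave 0.61 to 0.92 for Shisa3 at E14.5, -0.72 to -0.38 for Shisa3 with age in males and -0.89 to -0.58 for the Cnr1 interaction, with calls lost as given above; Shisa3 with age in males was -0.57 (adjusted p 0.0729) when only the 6 male libraries were fitted. Values near 0 changed sign: Cnr1 between sexes at E16.5 ran from -0.12 to 0.19, with -0.04 without E16.5 female replicate 3 and -0.12 without E16.5 male replicate 1. Ddx4 with age in females ran from -0.11 to 0.23, with -0.11 without E14.5 female replicate 2 and -0.08 without E16.5 female replicate 1. The cause was not tested.

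Counts of called genes without single libraries ran from 553 to 1678 (1121 with all) between sexes at E14.5, with 553 to 686 when any E14.5 library but male replicate 1 was left out. For the interaction they ran from 1335 to 2687 (1790), the highest without E16.5 male replicate 1. In the uterus they ran from 1949 to 3521 (3866), with 1949 without Amhr2+ replicate 1 and 2521 without Gli1+ replicate 1. Scaled by library size alone, 63.5% of called uterine genes were higher in Amhr2+ cells against 42.5% with TMM, and 41.2% of genes called with age in males rose against 56.1%. With the replicate block the counts were 1581 at E14.5, 5901 at E16.5 and 2592 for the interaction, and the log2 fold changes of Shisa3, Cnr1 and Ddx4 at E16.5 were 2.5, 0.06 and -1.39. With Spearman's rho, 1 of the 5 genes most like each member over fetal libraries was shared with Pearson's r. The peak counts at the 3 starts were the same within 5 kb and with wide peaks only. Of 3751 values of other named genes, 467 lost their call and 0 changed direction. Depth limits Shisa3 in Amhr2+ cells and Ddx4 in fetal females, read 4 to 8 and 10 to 28 times.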
